A study of Mus musculus with 6 samples.

Results

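WNT response and antagonist genes were followed in whole lungs of mouse embryos at embryonic day 18. They are 10 rows of a table of 55335 genes, chosen by symbol. The 7 β-catenin target genes are Axin2, Nkd1, Notum, Apcdd1, Lef1, Tcf7 and Sp5, and the 3 secreted WNT antagonists are Dkk2, Dkk3 and Sfrp1. Bulk RNA-seq was done on 3 lungs labelled Gata4 CKO, with Prx1Cre, 1 floxed (F) and 1 deleted (D) Gata4 allele, and on 3 control lungs, with Prx1Cre, 1 floxed and 1 intact allele. Controls thus carry the Cre transgene and a floxed allele too, and the D allele of the other group is present in every cell. Prx1Cre is active in lateral plate mesoderm, which builds the connective tissue of the diaphragm. A whole lung may thus also hold cells without recombination, but the labels do not give which cells recombined. The design text describes diaphragm defects and small, less proliferative lungs in the Gata4 CKO embryos, and asks which genes differ in them.

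WNT proteins bind Frizzled receptors with LRP co-receptors and stop the destruction of β-catenin, which then enters the nucleus and activates genes with TCF and LEF factors. Several of those target genes encode inhibitors of the same pathway, so their transcripts serve as a readout of the signal and as its brake. In the developing lung, WNT and β-catenin signalling takes part in specifying the lung, in branching, and in growth of epithelium and mesenchyme.

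Total counts ranged between 15156415 (Gata4 CKO 2) and 29749277 in the libraries labelled Gata4 CKO, and between 20851989 and 30848948 in controls. Gata4, the targeted gene, had 117, 76 and 97 reads in the libraries labelled Gata4 CKO, against 84, 63 and 90 in controls, with a log2 fold change of 0.49 ± 0.28 (SE, edgeR adjusted p = 0.671), or 0.30 without Gata4 CKO 1. The count was thus not lower where the labels place the deletion, and exons outside the deleted part may be counted, so every direction below rests on the labels. Lung epithelial markers such as Sftpc, Sftpb and Nkx2-1 were read in all libraries, with a summed level of the 14 markers from 17682 to 26116 CPM in libraries labelled Gata4 CKO and from 11827 to 18043 CPM in controls (CPM, a gene's share of the library's counts, scaled to 1000000). The library labelled Gata4 CKO 1 stood apart by transcript length. Its median centred log2 CPM was 0.82 lower for long transcripts (4712 bases or more) than for short ones (2033 bases or fewer), while in the other 5 libraries it was 0.12 to 0.19 higher. Xist, read in female cells, was high in Gata4 CKO 1, Gata4 CKO 3 and control 2, so both sexes were present in each group.

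Windows before RefSeq transcription starts (GRCm38.p6) are shown for 3 members, because target genes of β-catenin often carry TCF and LEF words near the start. Capitals mark CTTTG followed by AA, AT, TA or TT, on either strand, within the 250 bases before the start. Sp5 held 2 of them (chr2:70474673-70474922, plus strand), an internal start of Lef1 held 1 (chr3:131156044-131156293, plus strand), and Axin2 held none (chr11:108920099-108920348, plus strand). The other Lef1 windows (chr3:131110047-131110296, chr3:131110073-131110322 and chr3:131112541-131112790) held none and are not shown. The bases just after the start were not found in a GENCODE transcript of the gene for any Lef1 window, but were for Sp5 and Axin2.
Sp5: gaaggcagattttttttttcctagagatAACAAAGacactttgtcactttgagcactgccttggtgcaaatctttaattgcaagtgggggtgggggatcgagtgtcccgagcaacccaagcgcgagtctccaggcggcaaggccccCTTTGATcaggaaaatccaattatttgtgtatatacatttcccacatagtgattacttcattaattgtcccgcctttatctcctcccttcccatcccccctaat
Lef1: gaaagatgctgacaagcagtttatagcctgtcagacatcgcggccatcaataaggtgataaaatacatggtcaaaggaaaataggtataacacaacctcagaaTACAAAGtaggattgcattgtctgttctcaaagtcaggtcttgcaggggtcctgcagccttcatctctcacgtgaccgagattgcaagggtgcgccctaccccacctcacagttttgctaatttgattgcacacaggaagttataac
Axin2: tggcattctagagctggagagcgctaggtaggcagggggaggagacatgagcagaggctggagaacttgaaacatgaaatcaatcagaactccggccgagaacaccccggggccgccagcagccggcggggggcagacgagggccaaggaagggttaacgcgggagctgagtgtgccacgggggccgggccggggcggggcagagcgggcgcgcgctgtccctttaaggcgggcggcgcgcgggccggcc
In Sp5 the words lay 98 to 104 and 216 to 222 bases before the start. RefSeq windows were matched for 6 of the 10 members, 10 windows in all, and 2 members held a TCF and LEF word, each in 1 window. Of 32851 windows of the same length over all genes, 14.8% held one. The GATA words AGATAA and TGATAA, on either strand, occurred in 16.6% of all windows, and among the members in the same Sp5 window (2 matches) and the same Lef1 window (1 match). A match is only a run of letters.

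No member passed the test. All 10 had enough reads to be tested, from 34 (Sp5, Gata4 CKO 2) to 7046 (Nkd1, control 3) in a library. With edgeR's quasi-likelihood test, 0 of the 10 had an adjusted p under 0.05, beside 0 of all 17075 genes tested (0%). At an unadjusted edgeR p under 0.05 there were 0 of 10, beside 8.68% of all genes. DESeq2 called 0 of 10, beside 0.881% of the genes to which it gave an adjusted p. The members' log2 fold changes, Gata4 CKO minus control, had a median of -0.24, against 0.011 over all genes, with 7 of 10 negative, beside 48.5% of all genes. The negative ones were 6 of the 7 target genes and Dkk2. Levels of the libraries labelled Gata4 CKO did not overlap those of controls for 3 members, Tcf7, Apcdd1 and Dkk2, all lower, beside 16.8% of all genes without overlap and 9.08% without overlap and lower. In bulk tissue, fewer cells of a type and less RNA per cell cannot be told apart.

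Axin2 (ENSMUSG00000000142, chr11:108920349-108950783, plus strand), a scaffold of the complex that destroys β-catenin and itself a general target of the pathway, had 57.2, 61.2 and 69.0 CPM in libraries labelled Gata4 CKO 1, 2 and 3, against 71.3, 66.9 and 74.8 CPM in controls 1, 2 and 3. The groups overlapped only in that Gata4 CKO 3 lay above control 2. On the log2 scale the difference was -0.18 ± 0.14 (SE, adjusted p = 0.733 in edgeR), with a 95% interval from -0.50 to 0.13. As fold, that interval runs from 0.706 to 1.10, so a fall to less than 0.706 of the control level lies outside it. Axin2 kept a negative value in each of 20 other settings, from -0.27 to -0.065, with -0.12 without Gata4 CKO 1.

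Nkd1 (ENSMUSG00000031661, chr8:88521354-88594884, plus strand), which binds Dishevelled inside the cell and dampens the signal, had 201.0, 147.5 and 169.9 CPM in libraries labelled Gata4 CKO, against 168.8, 174.5 and 230.8 CPM in controls. The groups overlapped, with control 3 highest and Gata4 CKO 2 lowest. Its log2 fold change of -0.15 ± 0.19 (SE, edgeR adjusted p = 0.849) became 0.0088 without control 3 and -0.034 without Gata4 CKO 2, but -0.27 without Gata4 CKO 1 and -0.23 without control 1.

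Notum (ENSMUSG00000042988, chr11:120653788-120661175, minus strand), a secreted enzyme that strips the lipid from WNT proteins, was the single target gene with a positive value. It had 23.3, 12.8 and 16.7 CPM in libraries labelled Gata4 CKO, against 14.7, 12.4 and 16.0 CPM in controls. Gata4 CKO 1 alone stood well above the control range. The log2 fold change of 0.29 ± 0.24 (SE, edgeR adjusted p = 0.757) became 0.048 without that library and 0.49 without Gata4 CKO 2. Notum's longest transcript has 2212 bases, 59.5% of them G and C. Transcripts of that length and composition stood 0.41 higher (log2) in Gata4 CKO 1 than their mean over the libraries. With the trend on length and GC content removed, Notum was at 0.20.

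Apcdd1 (ENSMUSG00000071847, chr18:62922231-62961179, plus strand), a membrane glycoprotein that binds WNT and its co-receptors and inhibits them, had 50.9, 40.4 and 51.4 CPM in libraries labelled Gata4 CKO, against 62.7, 64.3 and 52.3 CPM in controls. Every library labelled Gata4 CKO lay below every control, Gata4 CKO 3 by the small gap to control 3. Its log2 fold change, -0.33 ± 0.16 (SE), had an adjusted p of 0.612 in edgeR, the smallest adjusted p among the members. Its longest transcript has 10879 bases. With the length and GC trend removed, its value was -0.081. Without the library labelled Gata4 CKO 1, the one in which that trend was strongest, it was -0.37, and without Gata4 CKO 2 it was -0.21.

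Lef1 (ENSMUSG00000027985, chr3:131110471-131224356, plus strand), an HMG-box factor that pairs with β-catenin on DNA and is also its target, had 11.0, 8.14 and 11.7 CPM in libraries labelled Gata4 CKO, against 11.5, 11.3 and 15.7 CPM in controls. Control 3 was high and Gata4 CKO 2 low, while the other 4 libraries lay within 11.0 to 11.7 CPM. Its log2 fold change stood at -0.32 ± 0.22 (SE, edgeR adjusted p = 0.717), at -0.17 without Gata4 CKO 2 and at -0.15 without control 3. It was -0.36 without Gata4 CKO 1, -0.42 without Gata4 CKO 3, -0.39 without control 1 and -0.41 without control 2.

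Tcf7 (ENSMUSG00000000782, chr11:52252371-52283014, minus strand), the related HMG-box factor known also from T cells, had 27.4, 20.8 and 27.7 CPM in libraries labelled Gata4 CKO, against 28.4, 30.9 and 34.5 CPM in controls. The groups did not overlap, but Gata4 CKO 1 and 3 lay within 1 CPM of control 1. This gave a log2 fold change of -0.30 ± 0.17 (SE, edgeR adjusted p = 0.664), of -0.17 without Gata4 CKO 2 and of -0.37 without Gata4 CKO 3. Of the T cell and thymocyte markers 6 of 16 had enough reads to be tested, 4 of them negative, with a median log2 fold change of -0.095. Of the 6, 0 were without overlap, beside 16.8% of all genes. The 16 summed to between 16.3 and 18.1 CPM in libraries labelled Gata4 CKO and between 14.3 and 16.6 CPM in controls. The T cell receptor subunit Cd3e had 0, 5 and 0 reads in libraries labelled Gata4 CKO, against 2, 0 and 1 in controls. In the same order Cd3g had 0, 2 and 4 against 0, 3 and 4 reads. Cd3d had 3, 3 and 2 against 0, 3 and 10 reads, and Cd2 5, 4 and 4 against 1, 3 and 25. Control 3, where Tcf7 was highest, was thus also highest for Cd3d and Cd2. All of these markers were under the filter on low counts. The part of T cells in the value of Tcf7 was not tested.

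Sp5 (ENSMUSG00000075304, chr2:70474923-70477729, plus strand), a zinc-finger factor of the SP family induced by β-catenin, had the fewest reads, 92, 34 and 81 in libraries labelled Gata4 CKO, against 86, 95 and 100 in controls. In CPM these were 4.49, 2.25 and 2.67, against 4.01, 4.56 and 3.28. Gata4 CKO 2 and 3 lay below every control, and Gata4 CKO 1 above controls 1 and 3. In edgeR the log2 fold change was -0.32 ± 0.31 (SE, adjusted p = 0.796). Leaving out 1 library moved it both ways, to -0.66 without Gata4 CKO 1, -0.13 without Gata4 CKO 2, and -0.21 without Gata4 CKO 3 or without control 2. The longest transcript of Sp5 has 2100 bases, 62.0% of them G and C, and its length and GC trend in Gata4 CKO 1 was 0.42 (log2). Its interval, from 0.484 to 1.32 in fold, was the widest of the 10 and the single one that reached a 2-fold difference.

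**Figure D1:**
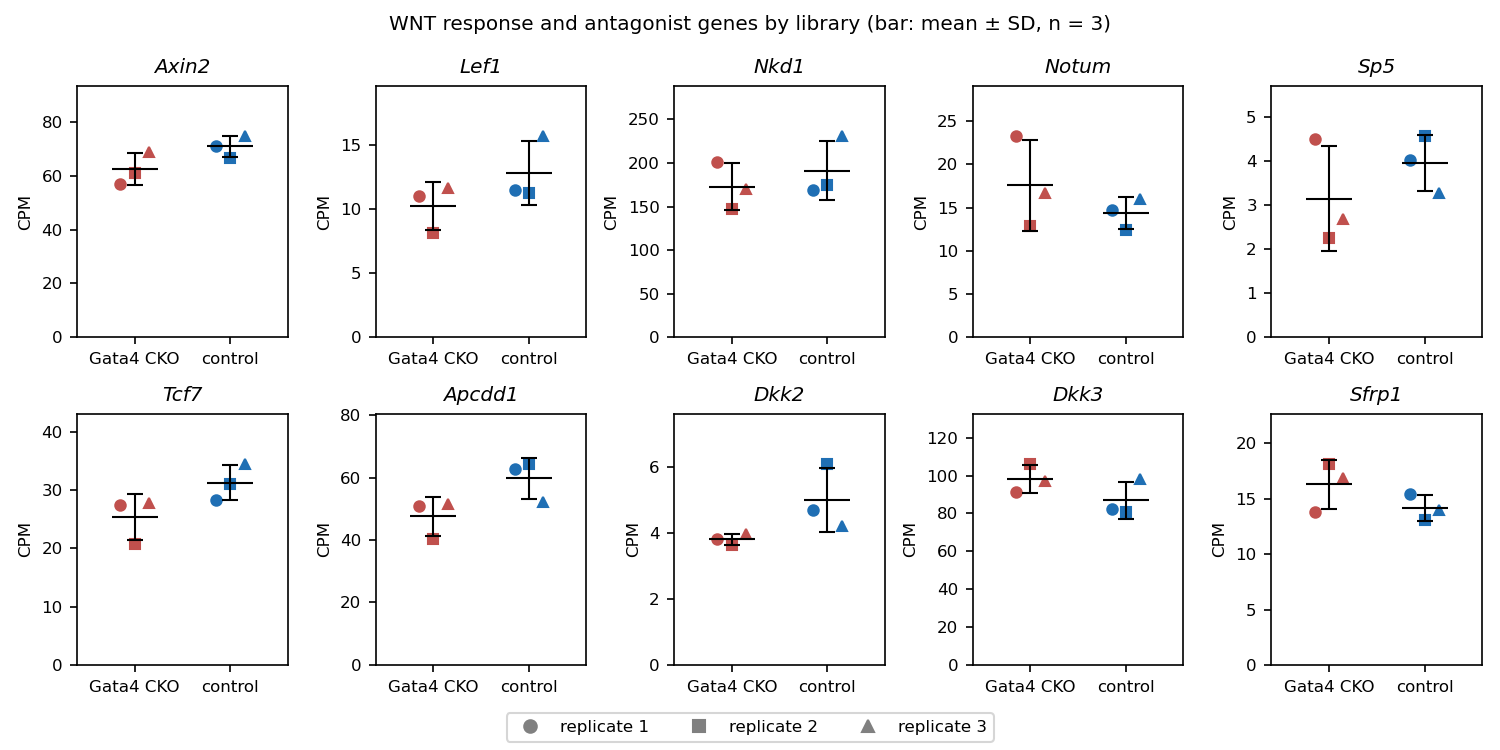
Each panel plots 1 gene in CPM (linear axis from 0) for the 3 libraries labelled Gata4 CKO (red, left) and the 3 controls (blue, right), with marker shape giving the replicate and black bars the mean ± SD. The groups are apart for Tcf7, Apcdd1 and Dkk2, and Gata4 CKO 1 is above the control range for Notum. For Sp5, Gata4 CKO 1 is highest of its group but within the control range.

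The secreted antagonists stood on both sides of zero. Dkk2 (ENSMUSG00000028031, chr3:132085292-132180304, plus strand), a Dickkopf protein that binds the LRP co-receptors, had 3.81, 3.64 and 3.96 CPM in libraries labelled Gata4 CKO, against 4.71, 6.09 and 4.23 CPM in controls. The groups did not overlap, and the libraries labelled Gata4 CKO lay close together. Its log2 fold change of -0.39 ± 0.23 (SE, edgeR adjusted p = 0.671) was the largest in size among the members. It was -0.23 without control 2 and -0.50 without control 3. Dkk2 rests on few reads, 55 to 120 in libraries labelled Gata4 CKO and 101 to 129 in controls.

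Dkk3 (ENSMUSG00000030772, chr7:112116017-112159057, minus strand), a divergent member of the Dickkopf family, had 91.5, 106.1 and 97.2 CPM in libraries labelled Gata4 CKO, against 82.1, 80.6 and 98.2 CPM in controls. Controls 1 and 2 were lowest and control 3 lay within the other group. Its log2 fold change of 0.18 ± 0.15 (SE, edgeR adjusted p = 0.765) stayed positive in each of 20 other settings, from 0.12 to 0.32, with 0.27 without control 3.

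Sfrp1 (ENSMUSG00000031548, chr8:23411502-23449632, plus strand), which holds WNT proteins through a domain like that of Frizzled, had 13.8, 18.1 and 16.9 CPM in libraries labelled Gata4 CKO, against 15.4, 13.1 and 14.0 CPM in controls. Gata4 CKO 2 and 3 lay above every control, and Gata4 CKO 1 between controls 2 and 3. This gave 0.20 ± 0.17 on the log2 scale (SE, edgeR adjusted p = 0.774), with 0.31 without Gata4 CKO 1 and 0.13 without Gata4 CKO 2.

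Per length, the members spanned more than an order of magnitude. Levels in RPKM, the CPM per 1000 bases of exon, averaged 37.9 ± 5.89 in libraries labelled Gata4 CKO and 42.0 ± 7.52 in controls for Nkd1, the highest, and 1.03 ± 0.04 and 1.35 ± 0.26 for Dkk2, the lowest (SD, n = 3 each). Dkk3 came second at 29.2 ± 2.20 RPKM in libraries labelled Gata4 CKO and 25.9 ± 2.91 RPKM in controls. Axin2 (11.3 and 12.9 RPKM in the same order) and Tcf7 (9.64 and 11.9 RPKM) followed, with library values that overlapped each other in both groups. Notum stood at 7.31 and 5.96 RPKM, Apcdd1 at 3.69 and 4.64 RPKM, and Sfrp1 at 3.73 and 3.24 RPKM. In controls each of these 3 was separate from the next, while in libraries labelled Gata4 CKO Notum overlapped Tcf7, and Sfrp1 overlapped Apcdd1 and stood just above it. Sp5, Lef1 and Dkk2 stood lowest, on average from 1.03 RPKM (Dkk2) in libraries labelled Gata4 CKO and up to 1.88 RPKM (Sp5) in controls, and neighbours among them overlapped in both groups. The order was otherwise the same in both groups. The exons of all isoforms were joined for these lengths, so genes with long rare isoforms read low.

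**Figure D2:**
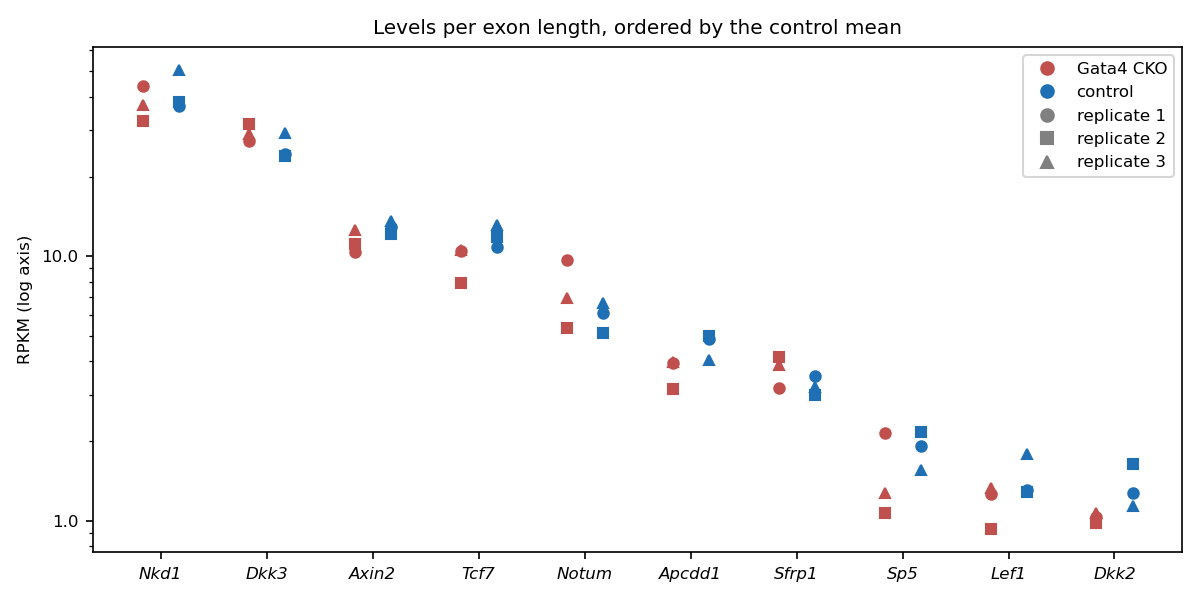
Levels in RPKM (log axis) for each member, ordered by the control mean, with libraries labelled Gata4 CKO in red on the left of each gene and controls in blue on the right. Nkd1 and Dkk3 stand above the others, and Sp5, Lef1 and Dkk2 overlap at the low end.

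The members did not share 1 profile over the libraries. The library labelled Gata4 CKO 2, the shallowest, was lowest of all 6 for 6 members (Lef1, Nkd1, Sp5, Tcf7, Apcdd1 and Dkk2) and highest for 2 (Dkk3 and Sfrp1). Control 3 was highest for 4 (Axin2, Lef1, Nkd1 and Tcf7). Gata4 CKO 2 also had the lowest summed level of 20 mitosis genes, 351.2 CPM, against 672.9 and 574.4 CPM in Gata4 CKO 1 and 3, and 1375 and 1463 CPM in controls 1 and 2 and 650.0 CPM in control 3. It had the highest summed cardiac and skeletal muscle markers as well, 750.9 and 126.8 CPM, against at most 549.9 and 61.9 CPM in the other libraries labelled Gata4 CKO and at most 485.9 and 62.0 CPM in controls. The part of these differences in the members' values was not tested. Without Gata4 CKO 2 the members' median log2 fold change was -0.15, and without control 3 it was -0.15 too.

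Closeness to Axin2 was measured as the root mean square difference between log2 CPM profiles over the 6 libraries, each centred on its own mean. It covered 13537 genes with at least 1 CPM on average. Clone-type symbols (such as Gm and Rik names), gene IDs, pseudogene symbols ending in -ps and mitochondrial symbols were left out. The closest genes outside the members were Ube2d1 (0.025), Kndc1 (0.030), Rnf216 (0.039), Spata24 (0.043) and Plxnb1 (0.043 log2 units). Among the members the closest was Tcf7, at 0.17 and rank 2393, followed by Apcdd1 at 0.20 and Lef1 at 0.21, and the farthest was Sp5, at 0.40 and rank 10578. Tcf7 thus had 2392 genes nearer to Axin2 than itself.

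**Figure D3:**
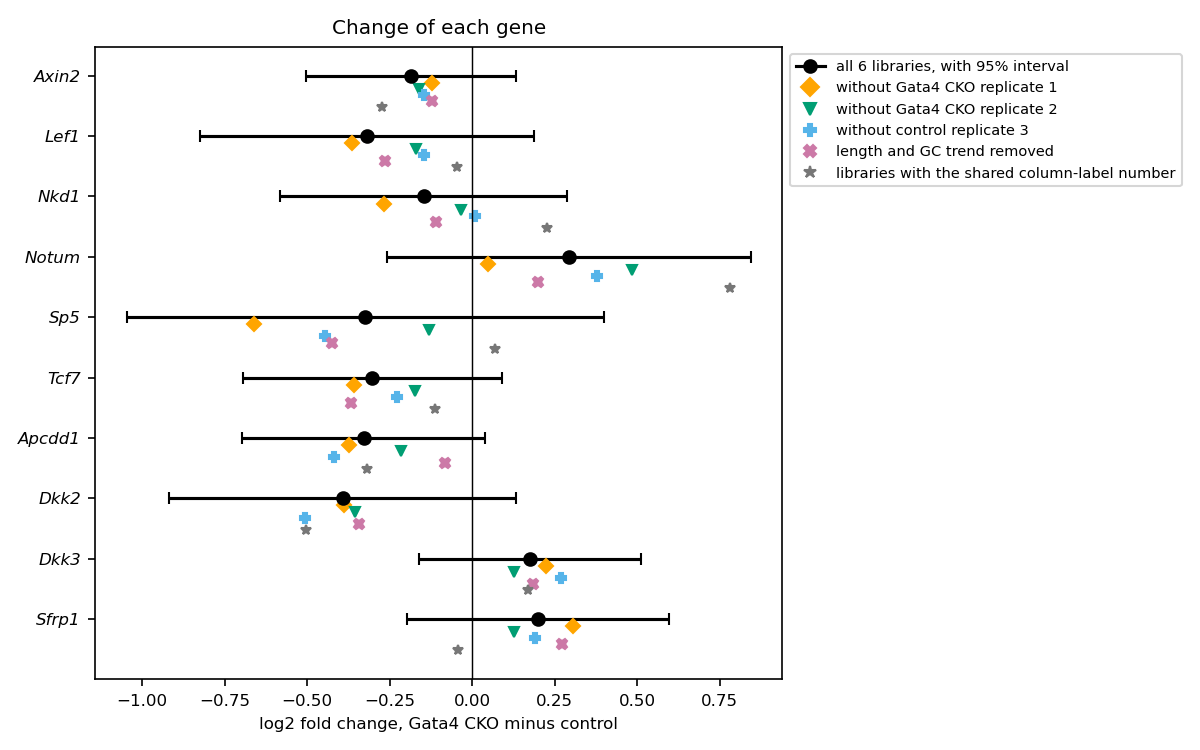
Log2 fold change (Gata4 CKO minus control) of each member over all 6 libraries, with its 95% interval (black), and 5 other settings as coloured markers. Every interval includes 0, and Nkd1, Sp5 and Sfrp1 cross 0 in some settings.

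Some libraries share a number in their column names, a number to which the labels give no meaning. It is the same in Gata4 CKO 1 and controls 1 and 2 (4229), is 4503 in control 3, and is 4723 in Gata4 CKO 2 and 3. Among the 3 libraries with the shared number the log2 fold changes were 0.78 for Notum, 0.23 for Nkd1, 0.069 for Sp5 and 0.17 for Dkk3, and -0.043 for Sfrp1, -0.046 for Lef1, -0.11 for Tcf7, -0.27 for Axin2, -0.32 for Apcdd1 and -0.50 for Dkk2, with a median of -0.045. These compare a single library labelled Gata4 CKO, the one that stood apart by transcript length, with 2 controls. A fit over all 6 libraries with the number as a term gave the same values when rounded. Its spread came from controls 1 and 2 and from Gata4 CKO 2 and 3. That fit called 1 of 10 members, Notum (edgeR adjusted p = 0.0062), beside 7308 of all 17075 genes tested. Nkd1, Sp5 and Sfrp1 had the other sign there. Outside that number, the number and the group cannot be told apart.

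The rest of the pathway was read from 8 lists with 112 genes found in the table, of which 88 were tested. None of the 88 passed in edgeR (0 of 88 at adjusted p under 0.05). At an unadjusted edgeR p under 0.05 there were 6 lower and 1 higher, beside 4.91% lower and 3.77% higher of all genes. DESeq2 called 1, Lgr6, beside 0.881% of the genes to which it gave an adjusted p. Of the 88, 60 had negative log2 fold changes, with a median of -0.11, and 16 lower and 4 higher did not overlap between groups, beside 9.08% and 7.69% of all genes.

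Other target genes of β-catenin had a median log2 fold change of -0.20 over 16 tested, with 11 negative, beside 48.5% of all genes. Without overlap there were 7 lower and 1 higher, beside 9.08% and 7.69% of all genes. Lgr6, an R-spondin receptor, had 7.23, 5.56 and 6.54 CPM in libraries labelled Gata4 CKO, against 23.6, 31.5 and 10.9 CPM in controls. Its groups were far apart except for control 3. Lgr6 thus stood at -1.76 ± 0.37 on the log2 scale (SE, adjusted p = 0.529 in edgeR), and DESeq2 gave an adjusted p of 0.0025. Lgr6 is also a marker of lung smooth muscle, and the 11 smooth muscle and myofibroblast markers, Lgr6 among them, summed to between 937.1 and 992.8 CPM in libraries labelled Gata4 CKO and between 1077 and 1378 CPM in controls. Their part in the value of Lgr6 was not tested.

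Ccnd1, a cyclin that drives entry into the cell cycle, had 128.6, 98.2 and 140.9 CPM in libraries labelled Gata4 CKO, against 193.1, 237.9 and 163.8 CPM in controls, a log2 fold change of -0.69 ± 0.20 (SE, edgeR adjusted p = 0.529). The mitosis genes given above had a median log2 fold change of -1.14, with 20 of 20 negative, and their part in the value of Ccnd1 was not tested. The highest level per length in this list was that of Lbh, a transcriptional cofactor, at 215.4 RPKM in controls.

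Among 11 tested WNT ligands the median log2 fold change was -0.013. Wnt5a, mostly a ligand of β-catenin-independent signalling, had 35.8, 46.2 and 52.3 CPM in libraries labelled Gata4 CKO, against 81.4, 86.0 and 60.9 CPM in controls. The groups did not overlap, with a log2 fold change of -0.76 ± 0.20 (SE, edgeR adjusted p = 0.529). Wnt5b, its close relative, had the next smallest p and a log2 fold change of 0.33, or 0.15 without Gata4 CKO 1. Wnt2, a ligand of lung mesenchyme, had the highest level per length of the ligands, 34.7 RPKM in controls, with a log2 fold change of -0.013.

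Of 13 tested receptors 11 were negative, beside 48.5% of all genes, with a median of -0.12. Lower without overlap were 4, beside 9.08% of all genes. Ror1, a receptor tyrosine kinase for Wnt5a, had 23.0, 28.3 and 29.4 CPM in libraries labelled Gata4 CKO, against 39.8, 35.9 and 35.9 CPM in controls, a log2 fold change of -0.47 ± 0.15 (SE, edgeR adjusted p = 0.529). Fzd1, a Frizzled receptor, stood at -0.35 ± 0.13 (SE, edgeR adjusted p = 0.546). With the length and GC trend removed, Ror1 was at -0.32 and Fzd1 at -0.28.

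Among the R-spondins, secreted proteins that raise WNT receptor levels, Rspo1 had 29.5, 24.6 and 20.2 CPM in libraries labelled Gata4 CKO, against 17.2, 13.6 and 18.3 CPM in controls, a log2 fold change of 0.60 ± 0.20 (SE, edgeR adjusted p = 0.529). Its groups did not overlap. Rspo2 stood at 0.29, but at 0.031 without Gata4 CKO 2, at 0.14 without control 3 and at 0.47 without Gata4 CKO 1. For WNT secretion, Porcn, which adds the lipid to WNT proteins, stood at 0.22 and their carrier Wls at 0.13 (log2 fold change), which became 0.25 without Gata4 CKO 1 and -0.0031 without Gata4 CKO 2.

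The other 12 tested antagonists had a median log2 fold change of -0.098 and none without overlap, beside 16.8% of all genes. Trabd2b, a membrane protease that cuts WNT proteins, stood at -0.53 and Sost, an LRP-binding inhibitor, at -0.61. Without Gata4 CKO 1 these were -0.85 and -0.36, Trabd2b was -0.34 without Gata4 CKO 2, and Sost was -0.93 without Gata4 CKO 3. Dkk1, a classical inhibitor, was under the filter on low counts, with at most 0.489 CPM in a library labelled Gata4 CKO and at most 0.144 CPM in a control, and Dkk4 had no reads in any library. The list of the destruction complex also held Dishevelled and tankyrase genes, which are not parts of it. Of its 15 genes 11 were negative, beside 48.5% of all genes, with a median of -0.11. Gsk3b, the kinase that marks β-catenin, stood at -0.25 and the Dishevelled gene Dvl3 at -0.23, but without Gata4 CKO 1 they were at -0.029 and -0.024. The 15 genes summed to 1968 CPM in Gata4 CKO 1 and to 2925 and 2906 CPM in Gata4 CKO 2 and 3, against 2773 to 2956 CPM in controls, so Gata4 CKO 1 alone lay below the control range. Of the 14 nuclear partners the corepressors Tle3 and Tle4 had the smallest p, with log2 fold changes of -0.29 and -0.42, and the list's median was -0.058. Tle3 was at -0.11 with the length and GC trend removed, and Tle4 at -0.23 without Gata4 CKO 1.

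**Figure D4:**
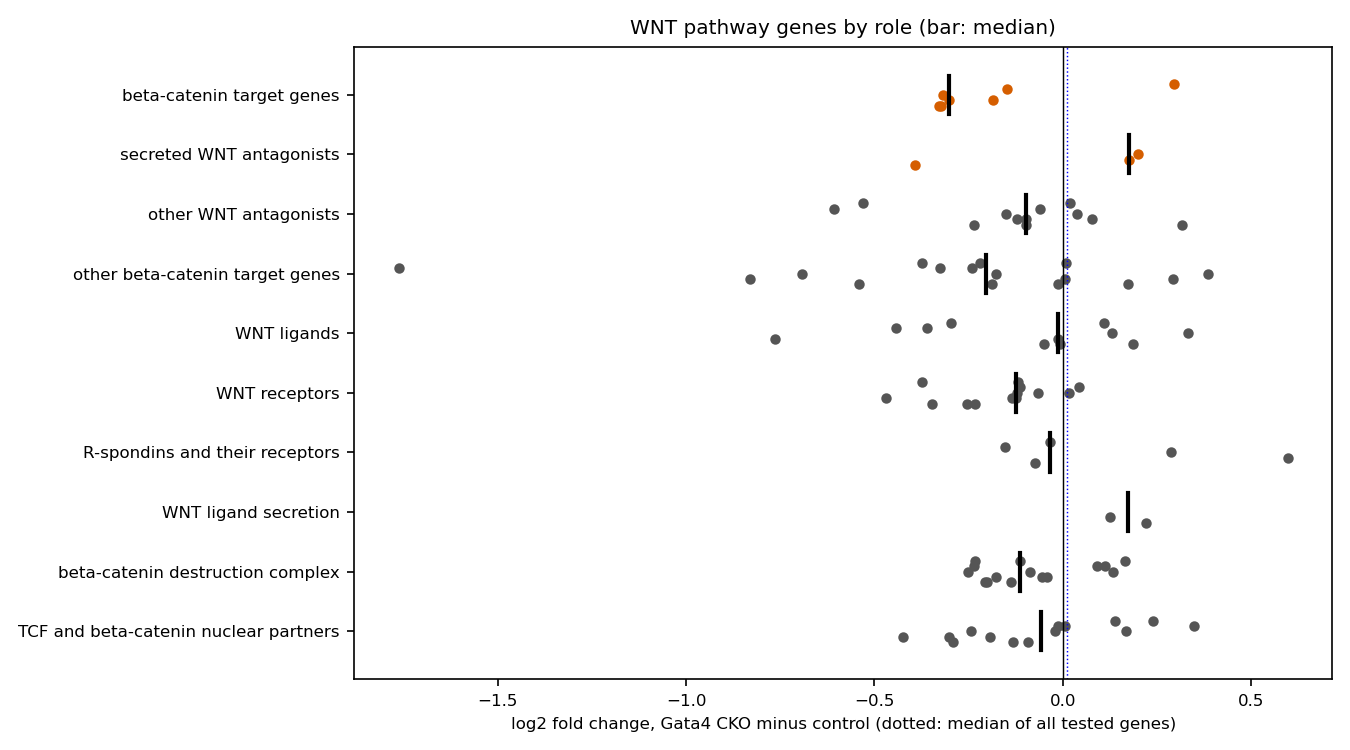
Log2 fold change (Gata4 CKO minus control) of each tested gene by role in the pathway, with the 10 members in orange, black bars at each list's median and a dotted line at the median of all tested genes (0.011). Lgr6 lies farthest left, at -1.76, and the list medians lie between -0.30 and 0.18.

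Other cell types were followed by their markers. Endothelial markers, 12 genes, summed to between 2628 and 3071 CPM in libraries labelled Gata4 CKO and between 3015 and 3506 CPM in controls, and alveolar and matrix fibroblast markers, 15 genes, to between 7447 and 9153 CPM and between 8540 and 9276 CPM in the same order. Airway cartilage markers, 12 genes with Snorc at 0 reads, lay between 65.1 and 77.5 CPM in libraries labelled Gata4 CKO and between 107.2 and 116.3 CPM in controls. Of 8 tested, 7 were negative and 1 was lower without overlap, beside 9.08% of all genes. Col2a1 had 0.489, 0.265 and 0.429 CPM in libraries labelled Gata4 CKO, against 0.233, 0.528 and 0.557 CPM in controls. Like Col2a1, the collagens Col9a1, Col9a2, Col9a3, Col11a1 and Col11a2 each overlapped between the groups, unlike the sums. Col9a2 had 13.6, 5.16 and 9.91 CPM in libraries labelled Gata4 CKO, against 12.5, 14.6 and 8.29 CPM in controls. Acan and Cnmd were under the filter on low counts. Macrophage and monocyte markers, 12 genes, summed to between 1353 and 1404 CPM in libraries labelled Gata4 CKO, against 601.2, 532.2 and 1406 CPM in controls 1, 2 and 3. Control 3 alone reached the sums of the other group, but not for each gene. Adgre1 had 9.53 CPM in control 3, against 15.7, 16.9 and 15.4 CPM in libraries labelled Gata4 CKO. C1qa had 23.3 CPM there, against 47.1, 34.0 and 25.7 CPM, while C1qb and Cx3cr1 overlapped between the groups. Of the 12, 10 had positive log2 fold changes, with a median of 0.63, and 7 were higher without overlap, beside 7.69% of all genes. At an unadjusted edgeR p under 0.05 there were 7 higher, beside 3.77% of all genes, while edgeR called 0 after adjustment. DESeq2 called 3, beside 0.881% of the genes to which it gave an adjusted p. Ranges of mesothelial (8 genes) and pericyte (10 genes) markers overlapped between the groups, from 669.6 to 940.6 and from 1105 to 1242 CPM in libraries labelled Gata4 CKO, and from 770.4 to 818.2 and from 1225 to 1252 CPM in controls. So did those of innate lymphoid (9 genes, 21.2 to 63.2 and 28.2 to 41.1 CPM) and liver markers (8 genes, 2.52 to 7.38 and 2.35 to 32.6 CPM). The part of these cell types in the members' values was not tested.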

How the data were processed

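The authors deposited unscaled whole-number counts of reads for each Ensembl gene, per the file headers. Among the tools in the submitters' processing notes are featureCounts 2.0.1, STAR 2.7.10a and DESeq2 1.36.0, with GRCm38 and mm10 as builds, but none of them has a role there. A stranded mRNA kit was used for the libraries, per the labels' protocols. Since no annotation release or strand setting was given in the sources used here, overlapping or near-identical genes may share reads in an unknown way. Symbols of 23239 of 23377 unnamed rows came from a reference table by gene ID. Positions, exon and transcript lengths and GC content came from GENCODE release M21 on GRCm38, and windows before starts from RefSeq on GRCm38.p6.

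Low genes were removed with filterByExpr (at least 10 reads, total at least 15), which left 17075. After TMM scaling, edgeR 4.0.16 (R 4.3.3) compared 3 libraries per group by its quasi-likelihood test with robust dispersions, two-sided, with Benjamini-Hochberg adjustment over all genes kept and a threshold of 0.05. The labels call the libraries biological replicates. The SE is the log2 fold change divided by the root of F, and 95% intervals use the test's degrees of freedom. CPM and RPKM use the TMM-scaled library sizes, and log2 CPM a prior count of 2. The trend on transcript length and GC content used splines with 5 degrees of freedom per library and entered as an offset. Alternatives used DESeq2 1.42.0 on the filtered genes and limma 3.58.1. As a check of the code, the test was also run on simulated counts. These had no length trend and no effect of the column-label number, so they do not show its performance on such data. The members and lists were chosen with earlier results of these data known. All members and Gata4 were named, and of each other WNT list the genes with the smallest p, up to 2, with some of the highest levels.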

Additional observations from a re-analysis of the deposited data

How the results depend on the processing

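The calls depended on the test and on the libraries. DESeq2 called 127 genes (50 higher, 77 lower), 0 members and 1 other WNT gene, against 0 of each in edgeR, where limma-voom also called 0. Without 1 library each, edgeR called 0 to 115 genes (115 without Gata4 CKO 1), 0 members and 0 other WNT genes. Quality weights in limma-voom gave 4375 of all 17075 genes, 3 of 10 members (Sp5, Apcdd1 and Dkk3) and 20 of 88 other WNT genes. With Gata4 CKO 1 and control 3 both left out edgeR called 4389 of 17224 genes. Among them were 3 of 10 members (Sp5, Apcdd1 and Dkk3) and 23 of 88 other WNT genes. With the column-label number as a term edgeR called 7308 of 17075 genes. Among them were 1 of 10 members (Notum, 0.78, edgeR adjusted p = 0.0062) and 42 of 88 other WNT genes. In that fit the group difference comes from Gata4 CKO 1 against controls 1 and 2. The cause of these differences was not tested.

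The members' median log2 fold change was -0.095 with quality weights, -0.045 with the column-label number as a term, -0.045 among libraries that share that number and -0.12 with the length and GC trend removed. It lay between -0.31 and -0.15 without 1 library each. Under the 3 other scalings 7 of 10 members stayed negative, with medians from -0.24 to -0.20.

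Axin2, Lef1, Tcf7, Apcdd1, Dkk2, Dkk3 and Notum kept their direction in all 20 other settings. Values of opposite sign were 0.23 for Nkd1, 0.069 for Sp5, -0.043 for Sfrp1, -0.32 for Rspo2 and -0.18 for Wls with the column-label number as a term, and the same when rounded among libraries that share it. Further ones were 0.0088 for Nkd1 without control 3 (from -0.27 over the settings that leave out 1 library), -0.0031 for Wls without Gata4 CKO 2 (up to 0.25 over those settings), -0.014 for Gata4 and 0.082 for Sost with quality weights, and 0.032 for Dvl3 with Gata4 CKO 1 and control 3 both left out.

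Same-numbered libraries deviated from their group means with correlations of 0.11, -0.30 and 0.12 across genes, so the replicate numbers were not taken as pairs. With the replicate block edgeR called 0 genes and the members' median was -0.25. Sp5 and Dkk2 had the fewest reads of the members, 34 to 129 in a library, and the part of depth in their intervals was not tested.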
